A study of Mus musculus with 12 samples.

Results

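Expanded innate-like thymocytes of 2 lineages were set side by side: mutant invariant natural killer T (iNKT) cells, labelled L-DKO iNKT, and Id3-deficient γδ T cells, labelled Id3KO γδ. The comparison rests on 4 of the 11 libraries with values, 2 a group, chosen by their labels and not by any measured level, and it covers all 11815 gene entries of the expression table. L-DKO mice carry floxed Id2 and Id3 alleles together with LckCre, a recombinase expressed in thymocytes under the Lck promoter, and their iNKT cells were sorted with a CD1d tetramer and an antibody to TCRβ. Id3KO mice lack Id3 while Id2 is intact, and their γδ cells were sorted as TCRγδ+ CD3+ thymocytes. By their labels, both groups carry an Id3 mutation. All mice were 4 to 5 weeks old, and each library came from a pool of 2 to 3 mice. Because lineage and genotype change together, their contributions to a difference between the groups cannot be told apart. As a yardstick, 1 WT iNKT and 2 WT γδ libraries, all titled B6 for the mouse strain and sorted in the same way, are given beside the mutant ones.

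E proteins (E2A, HEB and E2-2, encoded by Tcf3, Tcf12 and Tcf4) are helix-loop-helix transcription factors that bind DNA at E-box motifs. Id proteins pair with E proteins and keep them from DNA. iNKT cells carry an αβ receptor whose α chain is nearly invariant and sees lipids on CD1d, while the γδ cells that expand without Id3 mostly carry a restricted γδ receptor with a δ chain of the Vδ6 family. Both kinds of cell are known to depend on the transcription factor PLZF, encoded by Zbtb16, and to release cytokines soon after stimulation.

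Levels are in FPKM, fragments scaled by gene length and by the total of mapped fragments, and differences are on the scale of log2(FPKM + 1), L-DKO iNKT minus Id3KO γδ, given with the standard error of the limma fit. A gene is said to rise, fall or be called where the limma p adjusted over all 11815 entries by the Benjamini-Hochberg method was under 0.05. Within a group, libraries are named a and b in the order of their columns. The sequencing depth is unknown, so an entry without signal is described as listed at 0. The summed FPKM was 518764 and 517268 in the L-DKO-labelled iNKT libraries, against 797395 and 676270 in the Id3KO γδ libraries. Small RNAs, receptor segments and predicted genes took 35.1% and 37.1% of it in L-DKO iNKT, against 53.1% and 45.4% in Id3KO γδ. Over all entries, Pearson's r on log2(FPKM + 1) was 0.920 between the L-DKO iNKT libraries, 0.908 between the Id3KO γδ libraries and 0.837 to 0.862 across the groups. Over entries that are neither small RNA, receptor segment nor predicted gene, the mean r was 0.905 between L-DKO iNKT and Id3KO γδ and 0.891 between WT iNKT and WT γδ cells, whereas over all entries the order was the other way, with 0.850 between the mutants and 0.880 between the WT groups. In the smaller set, single pairs were at 0.896 to 0.913 between the mutants and at 0.874 and 0.907 between the WT groups. These ranges overlap, and the WT pairs share 1 WT iNKT library. In that set the mean r was 0.913 between Id3KO γδ and WT iNKT, and 0.862 between L-DKO iNKT and WT iNKT. All these correlations are across genes, which are not independent replicates.

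The receptor genes were examined first, since they test the sort labels. Trac, the constant gene of the TCRα chain, was at 432 and 547 FPKM in the L-DKO-labelled iNKT libraries, against 43.8 and 53.0 FPKM in the Id3KO γδ libraries, a difference of 3.31 ± 0.23 (limma adjusted p = 0.000555). Trav11, the variable segment of the invariant iNKT α chain, was at 192 and 261 FPKM in L-DKO iNKT, against 1.61 and 1.23 FPKM in Id3KO γδ (6.54 ± 0.43, limma adjusted p = 0.00044). Both genes were thus high in each tetramer-sorted library and low in each γδ library, without overlap. Trav11 and its near-identical copy Trav11d together held 39.6% and 54.6% of the summed FPKM over 73 Trav segments in L-DKO iNKT, against 0.4% and 0.1% in Id3KO γδ, and the share was 72.5% in WT iNKT. Reads may be split between these copies, and in bulk RNA fewer cells of a kind and less RNA per cell cannot be told apart.

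The β chain segments differed between the mutant iNKT pools. Trbv29 held 87.7% of the summed FPKM over 19 Trbv segments in L-DKO iNKT library a and 2.2% in library b, whereas Trbv13-2 held 10.2% in library a and 84.0% in library b. In the WT iNKT library these shares were 19.9% for Trbv29 and 38.2% for Trbv13-2. Each pool of mutant iNKT cells was therefore dominated by 1 Vβ segment, and not by the same one. None of the 19 Trbv segments was called between the groups, where 3.98% of all entries were. The β constant genes Trbc1 (607 and 288 FPKM in L-DKO iNKT, against 193 and 199 FPKM in Id3KO γδ) and Trbc2 (336 and 495 FPKM, against 223 and 220 FPKM) did not pass either, with limma adjusted p of 0.129 and 0.0813.

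Of 14 measured genes of the γδ receptor list, 8 fell in L-DKO iNKT and none rose, with a median difference of −4.97, against 1.90% of all entries called lower. Tcrg-C2, a γ constant gene, was at 0.363 and 2.84 FPKM in L-DKO iNKT, against 228 and 368 FPKM in Id3KO γδ (−6.99 ± 0.61, limma adjusted p = 0.00139). Tcrg-C1 and the variable segments Tcrg-V1 and Tcrg-V4 had the same pattern, with differences of −6.83, −7.05 and −6.01. The WT iNKT library held 217 FPKM of Tcrg-C2 and 150 FPKM of Tcrg-C1, so the low γ transcript of the mutant iNKT libraries was not shared by their WT counterpart. The δ segments of the Id3KO γδ cells came mainly from the Trav15 family, which serves both the α and the δ chain. Its 6 segments with an entry held 90.7% of the summed Trav FPKM in each Id3KO γδ library, against 3.0% and 4.4% in the L-DKO iNKT libraries, and 38.1% and 40.5% in the WT γδ libraries. Trav15d-1-dv6d-1 was at 13.1 and 21.5 FPKM in L-DKO iNKT, against 574 and 619 FPKM in Id3KO γδ (−5.07, limma adjusted p = 0.00041). The 4 segments that serve the δ chain alone were listed at 0 in both L-DKO iNKT libraries. The most abundant of them, Trdv5, was at 50.4 and 17.1 FPKM in Id3KO γδ cells, against 238 and 341 FPKM in WT γδ cells. Counts of members and calls in these lists use segments that resemble each other closely, and the sources used here do not give how the authors split such reads.

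**Figure D1:**
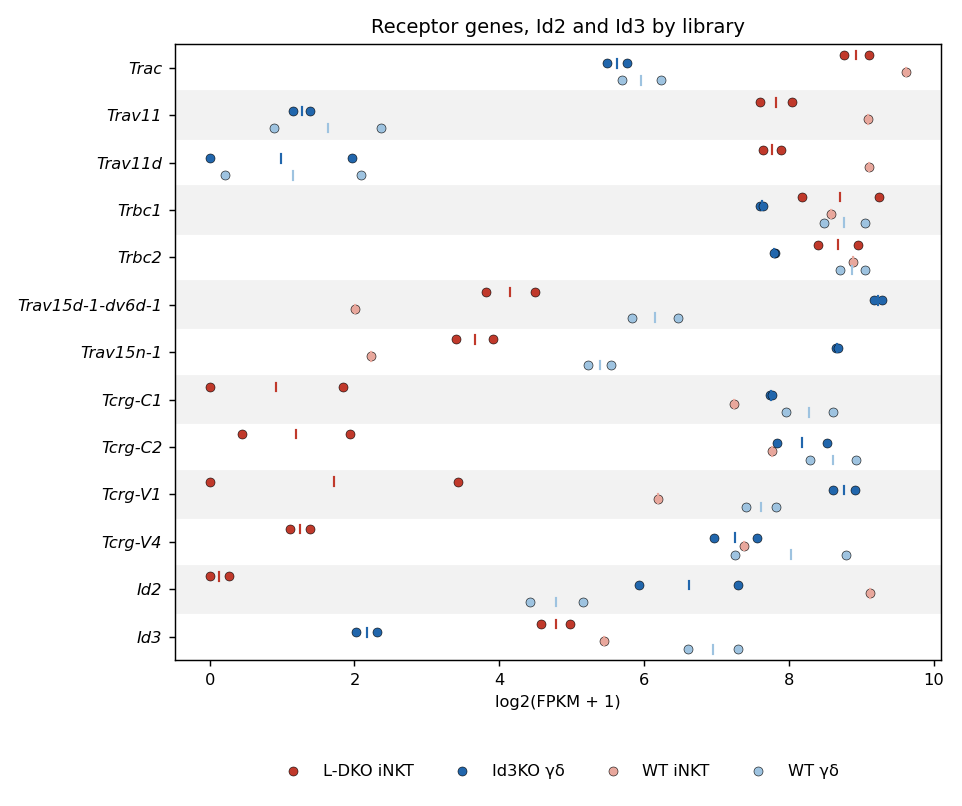
Levels of receptor genes, Id2 and Id3 as log2(FPKM + 1) on the horizontal axis, with 1 dot a library and a bar at the group mean, for L-DKO iNKT (2 libraries), Id3KO γδ (2), WT iNKT (1) and WT γδ (2). Trac and Trav11 lie high in the iNKT libraries, Trav15d-1-dv6d-1 is highest in Id3KO γδ, and the Tcrg genes are low in L-DKO iNKT alone.

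The deleted genes differed between the groups in opposite directions. Id2 was listed at 0 in L-DKO iNKT library a and was at 0.199 FPKM in library b, against 157 and 60.0 FPKM in the Id3KO γδ libraries (−6.48 ± 0.43, limma adjusted p = 0.00044). Id2 was at 553 FPKM in WT iNKT and at 20.4 and 34.6 FPKM in WT γδ cells. Id3 transcript, in contrast, was still present in both L-DKO-labelled iNKT libraries, at 30.5 and 22.8 FPKM, against 3.95 and 3.07 FPKM in the Id3KO γδ libraries (2.61 ± 0.35, limma adjusted p = 0.00839). The WT levels of Id3 were 42.4 FPKM in iNKT and 157 and 96.7 FPKM in γδ cells. The Id2 values thus match the L-DKO label. The Id3 values of these iNKT libraries lay below that of WT iNKT but show no near-complete loss. With 1 WT iNKT library, a partial loss of Id3 transcript can be neither shown nor denied. In double-positive (DP) thymocytes, Id3 was at 6.16 and 3.09 FPKM in the L-DKO libraries, against 53.8 and 36.9 FPKM in WT. Why Id3 differed between the L-DKO iNKT and DP libraries was not tested. Which part of Id3 each allele removes was not examined here, and directions below are those of the libraries as labelled. The E protein genes did not pass the test. Tcf12 was at 88.2 and 78.9 FPKM in L-DKO iNKT, against 66.3 and 76.4 FPKM in Id3KO γδ (0.23, 95% interval −0.24 to 0.70), and Tcf3 was at 36.1 and 27.9 FPKM, against 41.4 and 35.7 FPKM (−0.27, 95% interval −0.85 to 0.31). Tcf4 was low in both, at 1.21 and 1.75 FPKM against 2.23 and 3.19 FPKM.

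Across the whole table, 470 of 11815 entries were called, which is 3.98%, of which 245 were higher and 225 lower in the L-DKO-labelled iNKT libraries. At an unadjusted p under 0.05 there were 2314 entries (19.6%), and the median difference over all entries was −0.01. The called entries comprised 370 named genes, 66 predicted genes, 27 receptor segments and 7 small RNAs. Of 101 small RNAs, 94 were lower in L-DKO iNKT, with a median difference of −2.63, and small RNA took 17.6% and 24.1% of the FPKM in L-DKO iNKT, against 38.5% and 30.5% in Id3KO γδ. Where all libraries were scaled to the same FPKM total, the median of all entries moved to 0.45 and the split became 806 higher and 133 lower, and with small RNAs, segments and predicted genes left out of that total it was 334 higher and 149 lower. The calls also lean on the spread shared with the other libraries: with only the 4 libraries compared, 46 entries passed, of which 39 were among the 470, and leaving out either L-DKO DP (double-positive thymocyte) library left 261.

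**Figure D2:**
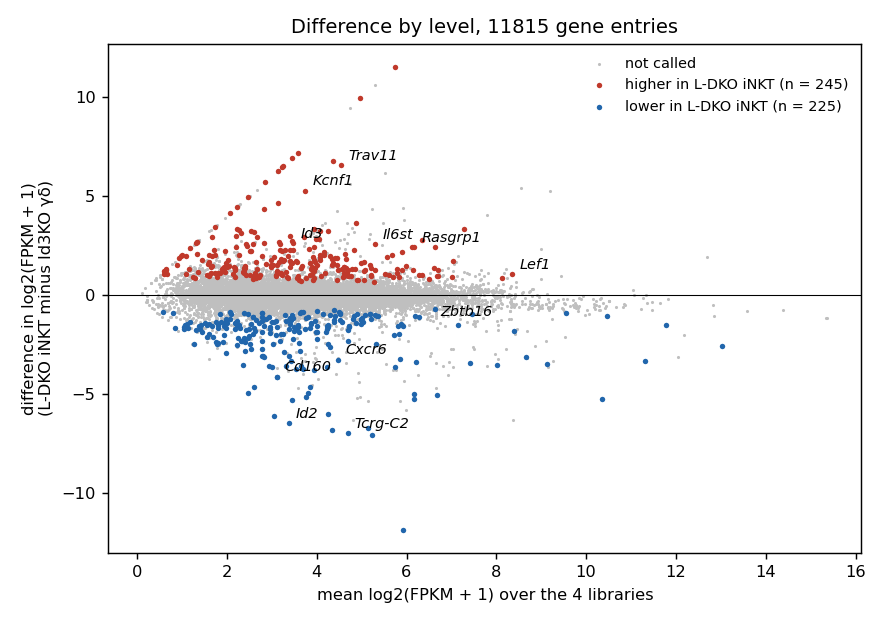
Difference in log2(FPKM + 1), L-DKO iNKT minus Id3KO γδ, on the vertical axis against the mean log2(FPKM + 1) of the 4 libraries on the horizontal axis, with 1 point for each of 11815 entries. The 245 called rises (red) and 225 called falls (blue) lie above and below the grey bulk of entries, which centres near 0.

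The largest rises among well-expressed named genes were led by Kcnf1, a voltage-gated potassium channel subunit. It was at 66.1 and 102 FPKM in L-DKO iNKT, against 1.596 and 0.788 FPKM in Id3KO γδ (5.27 ± 0.26, limma adjusted p = 0.000361). Bach2, a transcriptional repressor that restrains effector differentiation of T cells, was at 66.0 and 49.7 FPKM in L-DKO iNKT, against 2.91 and 9.17 FPKM in Id3KO γδ (3.21 ± 0.46, limma adjusted p = 0.0102). Tubb2a, a β-tubulin with a close paralog, was at 56.4 and 40.6 FPKM, against 4.87 and 3.08 FPKM (3.32 ± 0.26, limma adjusted p = 0.0011). The rule that ranked these genes asked for groups without overlap. Alcam, an adhesion molecule that binds CD6, was at 10.7 and 18.0 FPKM in L-DKO iNKT, and in Id3KO γδ it was listed at 0 in library a and at 1.41 FPKM in library b (3.27 ± 0.41). Igfbp4, which binds insulin-like growth factors, was at 72.0 and 146 FPKM, against 18.0 and 2.66 FPKM (3.64 ± 0.70), and Arhgap20 (3.23), Spats2l (3.21), Hmgn3 (3.15), Kctd17 (3.00) and Rps6ka2 (3.00) completed the 10. Igfbp4, Spats2l, Kctd17 and Rps6ka2 lost the call under at least 1 omission of a single library, with limma adjusted p of up to 0.119 for Igfbp4 without L-DKO iNKT library b.

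The largest falls after Id2 included Pydc4, Runx3 and Cd160. Runx3, the factor that promotes cytotoxic and NK-type programs and represses Cd4, was at 1.79 and 0.551 FPKM in L-DKO iNKT, against 25.7 and 48.7 FPKM in Id3KO γδ (−4.13 ± 0.39, limma adjusted p = 0.0021). Cd160, a receptor of NK and cytotoxic T cells, was at 1.30 and 0.904 FPKM, against 27.5 and 45.2 FPKM (−4.12 ± 0.24, limma adjusted p = 0.00041). Pydc4, a pyrin-domain gene of the interferon-inducible Ifi200 cluster, was at 0.485 and 3.34 FPKM, against 94.0 and 63.4 FPKM (−4.95 ± 0.48, limma adjusted p = 0.00221). These genes were chosen among those whose groups do not overlap, so the gap is no result in itself. Pydc3 (−3.73), which resembles Pydc4 closely enough that reads may be shared, Adam19 (−3.81), a membrane protease, St3gal6 (−3.72), a sialyltransferase, Eng (−3.61), a TGF-β co-receptor, Rnf43 (−3.60), a ligase that removes Wnt receptors, and Myo1f (−3.57), a myosin of leukocytes, followed. Pydc3, St3gal6 and Eng lost the call under at least 1 omission, with limma adjusted p of up to 0.105 for St3gal6 without Id3KO γδ library a.

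**Figure D3:**
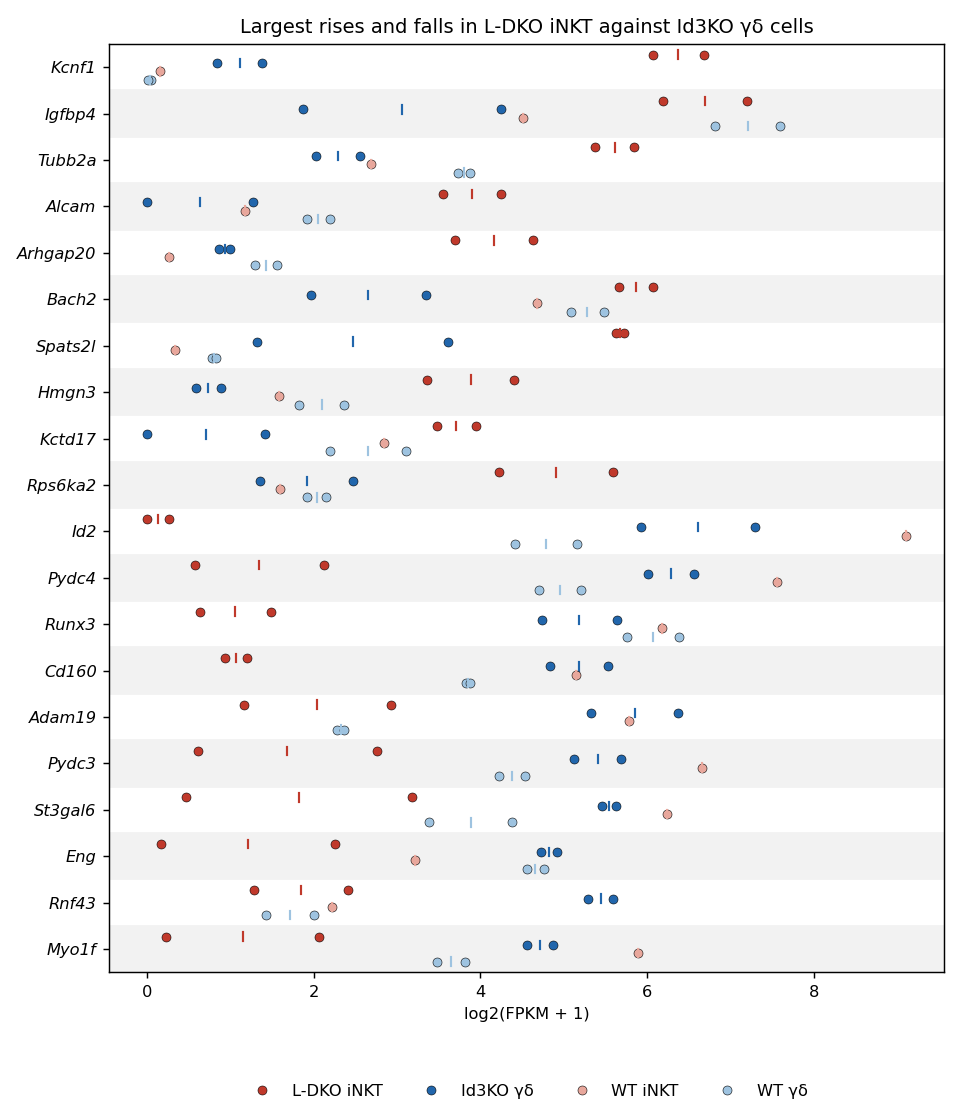
Levels as log2(FPKM + 1) by library for the 10 largest rises (Kcnf1 to Rps6ka2) and the 10 largest falls (Id2 to Myo1f) among named genes that reached a mean of 10 FPKM, with 1 dot a library and a bar at the group mean. By the choice of genes, the L-DKO iNKT dots lie right of all Id3KO γδ dots for the first 10 genes and left of them for the other 10.

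Since E proteins bind E-boxes, the 250 bases upstream of the outermost RefSeq start (GRCm38.p6) were searched on both strands for the E-box letters CAGCTG and CAGGTG. Of the 20 ranked genes, 16 had a promoter entry. The letters were found in 5 of 8 promoters of the falls (Id2, Runx3, Cd160, Adam19 and Myo1f) and in 2 of 8 promoters of the rises (Tubb2a and Alcam). Among all 27025 promoters of the RefSeq set, 27.4% held at least 1 of these motifs, and among genes with an entry the share was 36.1% of 155 called rises, 35.04% of 117 called falls and 22.8% of 7470 uncalled genes. The share was thus alike in rises and falls. The windows of Cd160, which held 3 matches, of Runx3 and Alcam, which held 1 each, and of Kcnf1, the largest rise, which held none, are given 5′ to 3′ on the gene's strand with the E-box letters in capitals. They lie at chr3:96829352-96829601 (minus strand) for Cd160, chr4:135120395-135120644 (plus) for Runx3, chr16:52453082-52453331 (minus) for Alcam and chr12:17176889-17177138 (minus) for Kcnf1.
Cd160: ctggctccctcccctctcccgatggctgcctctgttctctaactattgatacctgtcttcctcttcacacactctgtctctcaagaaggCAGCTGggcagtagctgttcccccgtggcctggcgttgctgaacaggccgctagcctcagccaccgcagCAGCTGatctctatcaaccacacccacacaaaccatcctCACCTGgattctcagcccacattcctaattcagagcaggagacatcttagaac
Runx3: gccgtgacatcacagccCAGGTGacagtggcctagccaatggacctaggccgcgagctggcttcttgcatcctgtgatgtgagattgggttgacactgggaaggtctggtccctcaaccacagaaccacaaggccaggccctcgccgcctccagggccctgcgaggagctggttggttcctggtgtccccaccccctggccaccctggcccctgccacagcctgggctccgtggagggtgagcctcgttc
Alcam: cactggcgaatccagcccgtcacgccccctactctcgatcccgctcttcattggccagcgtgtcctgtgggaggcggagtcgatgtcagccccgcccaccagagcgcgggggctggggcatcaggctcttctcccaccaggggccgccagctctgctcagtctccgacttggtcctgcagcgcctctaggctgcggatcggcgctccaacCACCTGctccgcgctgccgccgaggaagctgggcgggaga
Kcnf1: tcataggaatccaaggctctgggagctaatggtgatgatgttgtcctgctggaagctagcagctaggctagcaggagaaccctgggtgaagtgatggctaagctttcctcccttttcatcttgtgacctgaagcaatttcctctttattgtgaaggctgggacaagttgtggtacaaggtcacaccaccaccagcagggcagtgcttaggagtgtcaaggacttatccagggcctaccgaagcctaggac
In Cd160 the matches began 161, 92 and 53 bases before the start site, in Runx3 233 bases and in Alcam 40 bases before it. A match describes the letters only.

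Genes of type 1 and NK-type effector function were called in 1 direction. Of 18 measured genes of this list, 8 fell and none rose, with a median difference of −1.96 (−1.24 with an offset of 5), against −0.01 over all entries and a share of 1.90% of all entries called lower. Cxcr6, a chemokine receptor that keeps innate-like T cells in tissues, was at 5.24 and 7.33 FPKM in L-DKO iNKT, against 60.9 and 76.5 FPKM in Id3KO γδ (−3.26 ± 0.32, limma adjusted p = 0.00221). Ctsw, a protease of cytotoxic cells, was at 24.1 and 26.7 FPKM, against 113 and 96.7 FPKM (limma adjusted p = 0.00533). Stat4, which carries the IL-12 signal, was at 0.775 and 0.268 FPKM, against 9.72 and 5.06 FPKM (−2.43 ± 0.33, limma adjusted p = 0.00878), and Il12rb1, a chain of the IL-12 and IL-23 receptors, was at 3.43 and 2.66 FPKM, against 16.9 and 12.03 FPKM (−1.92 ± 0.28). Cd96, an inhibitory receptor of NK and T cells, was at 4.39 and 4.21 FPKM, against 25.0 and 29.5 FPKM (−2.41 ± 0.19), and S100a4 and Fcer1g fell by 3.12 and 2.19. Gzma, a granzyme that the study discusses, did not pass, with 290 and 201 FPKM in L-DKO iNKT against 204 and 66.2 FPKM in Id3KO γδ (1.05, 95% interval −0.13 to 2.22), and Klrd1, an NK receptor chain, averaged 8.87 ± 8.66 FPKM, against 41.6 ± 9.03 FPKM (SD, n = 2 each, limma adjusted p = 0.0776). S100a4 and Fcer1g lost the call under at least 1 omission (limma adjusted p of up to 0.0939 for Fcer1g without L-DKO iNKT library a).

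The type 17 list had 4 of 9 measured members lower and none higher, where 1.90% of all entries were lower. Its median was −1.58, and it was −2.35 with an offset of 0.1 and −0.70 with an offset of 5 in place of 1. Il7r, the IL-7 receptor chain, was at 22.3 and 11.5 FPKM in L-DKO iNKT, against 88.6 and 98.2 FPKM in Id3KO γδ (−2.46 ± 0.28, limma adjusted p = 0.00412). Nrp1, a surface receptor found on recently made iNKT cells, was at 2.75 and 0.819 FPKM, against 13.5 and 8.37 FPKM (−2.16 ± 0.36), and the membrane proteins Tmem176a (−1.87) and Tmem176b (−1.58) fell as well. The members called are receptors and membrane proteins. Only 9 of the 20 listed genes had an entry, and a listed cytokine without an entry could not be called. Nrp1 and Tmem176b lost the call without Id3KO γδ library a, with limma adjusted p of 0.0686 and 0.0533.

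Among transcription factors known from innate-like T cells, 6 of 34 measured rose and 1, Runx3, fell, against 2.07% of all entries higher and 1.90% lower. Bcl6, the repressor that directs follicular helper cells, was at 27.5 and 15.2 FPKM in L-DKO iNKT, against 3.97 and 2.96 FPKM in Id3KO γδ (2.28 ± 0.27, limma adjusted p = 0.00458). Lef1 was at 452 and 489 FPKM, against 227 and 228 FPKM (1.04 ± 0.16, limma adjusted p = 0.0143), and its relative Tcf7, which like Lef1 acts downstream of Wnt signals and marks less differentiated T cells, was at 379 and 366 FPKM, against 202 and 211 FPKM (0.85 ± 0.15, limma adjusted p = 0.0273). Myb, needed for early iNKT development, was at 130 and 159 FPKM, against 65.8 and 84.0 FPKM (0.94 ± 0.19). For Lef1 and Tcf7 the libraries of a group lay close together, while those of Bcl6 in L-DKO iNKT lay further apart. Egr2, induced by receptor signals and needed for iNKT cells, was at 50.9 and 69.7 FPKM, against 22.1 and 26.4 FPKM (1.27 ± 0.27, limma adjusted p = 0.043). Zbtb16, which encodes PLZF, was at 53.4 and 68.6 FPKM in L-DKO iNKT, against 171 and 135 FPKM in Id3KO γδ. WT γδ cells held 23.97 and 9.69 FPKM. This difference between the mutants lay below that between WT iNKT and WT γδ cells by −3.77 ± 0.58, with 1 WT iNKT library. Zbtb16 was called with an offset of 5 (limma adjusted p = 0.0499), but with the main offset of 1 it did not pass (−1.32 ± 0.36, limma adjusted p = 0.0976). Sox4 (0.87, limma adjusted p = 0.13) and Runx1 (0.68, limma adjusted p = 0.148) did not pass either. Lef1, Tcf7, Myb and Egr2 lost the call under at least 1 omission (limma adjusted p of up to 0.145 for Egr2 without L-DKO iNKT library b). Tcf7, Lef1, Egr2 and Slamf6 are 4 of 12 genes that the study discusses from these same libraries, so their passing is not independent support.

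The follicular helper list had 3 of 14 measured members higher and none lower, where 2.07% of all entries were higher. Its median was 0.85, and it was 0.36 without L-DKO iNKT library b and 1.32 with all libraries scaled to the same FPKM total. Besides Bcl6, these were Slamf6, a receptor that iNKT precursors need for selection, at 125 and 163 FPKM in L-DKO iNKT, against 65.6 and 79.6 FPKM in Id3KO γδ (0.98 ± 0.21, limma adjusted p = 0.045), and Ctla4, an inhibitory receptor, at 9.17 and 2.68 FPKM, against 0.18 and 0.867 FPKM (2.04 ± 0.44, limma adjusted p = 0.0472). Cxcr5, the receptor that leads cells to follicles, was at 15.1 and 36.9 FPKM, against 5.62 and 10.1 FPKM, and Pdcd1, which encodes PD-1, at 52.7 and 107 FPKM, against 43.3 and 32.6 FPKM; neither passed (limma adjusted p = 0.0822 and 0.176). Of the 9 measured SLAM family genes and Cd1d, Slamf6 and Slamf1 (6.15 and 5.59 FPKM, against 2.05 and 0.966 FPKM) rose. Slamf6, Slamf1 and Ctla4 lost the call under at least 1 omission (limma adjusted p of up to 0.148 for Slamf6 without L-DKO iNKT library b).

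**Figure D4:**
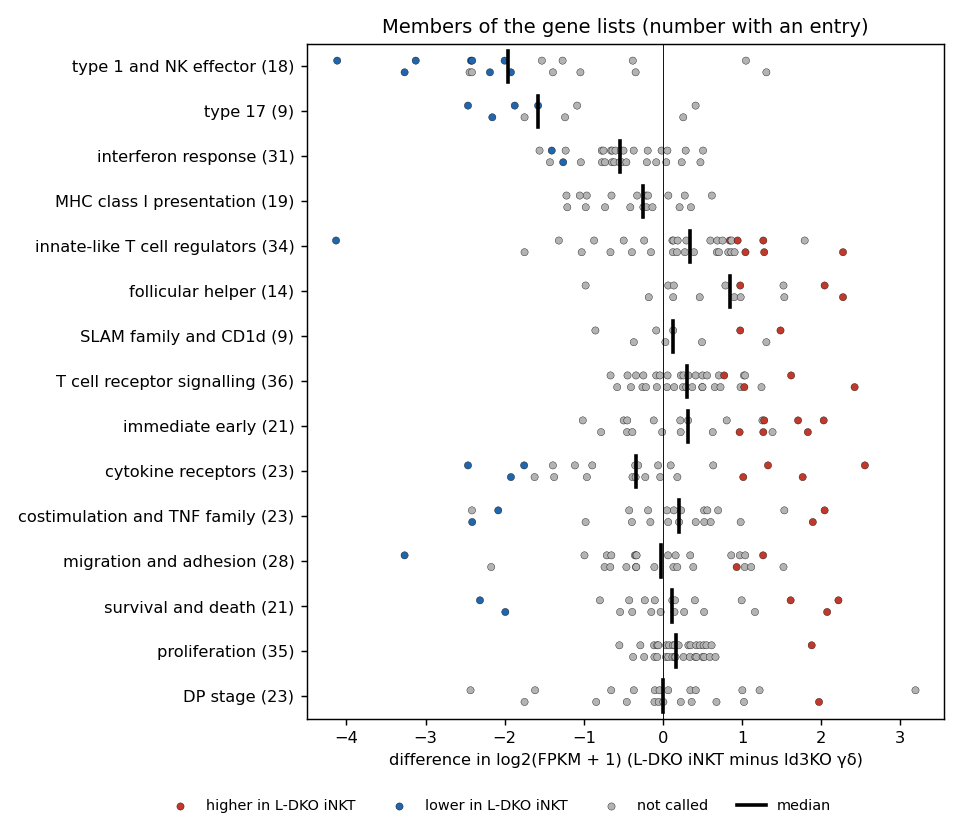
Difference in log2(FPKM + 1), L-DKO iNKT minus Id3KO γδ, on the horizontal axis for every measured member of 15 gene lists, with the number of members in parentheses, called rises in red, called falls in blue and a black bar at each median. The type 1 and NK effector list has its median at −1.96 and 8 of 18 members called lower, and the follicular helper list has its median at 0.85.

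Among genes that respond to antigen receptor signals the calls were rises only, while members without a call lay in both directions. Of 21 measured immediate early genes, 6 rose and none fell, where 2.07% of all entries rose. The median of this list was 0.32, against −0.01 over all entries. Cd69, an early activation marker that retains cells in tissue, was at 38.3 and 28.3 FPKM in L-DKO iNKT, against 6.32 and 8.42 FPKM in Id3KO γδ (2.03 ± 0.25, limma adjusted p = 0.00538). Egr1, an early transcription factor, was at 88.4 and 96.8 FPKM, against 35.1 and 40.1 FPKM (1.28 ± 0.17, limma adjusted p = 0.00656), and Nr4a1, which encodes NUR77 and tracks receptor signal strength, was at 29.0 and 48.4 FPKM, against 8.98 and 10.7 FPKM (1.83 ± 0.31, limma adjusted p = 0.0201). Dusp6, a phosphatase that dampens ERK, rose by 1.71, and Tnfaip3, which dampens NF-κB, by 0.97. Among 36 genes of the receptor signalling machinery, 4 rose and none fell, with a median of 0.31. Rasgrp1, the exchange factor that links the receptor to Ras, was at 153 and 180 FPKM, against 31.0 and 29.3 FPKM (2.42 ± 0.16, limma adjusted p = 0.00044), and Cd247, the receptor ζ chain, was at 89.5 and 133 FPKM, against 56.2 and 49.8 FPKM (1.03 ± 0.21, limma adjusted p = 0.0391). The phosphatase gene Ubash3a (1.62) and Tespa1 (0.77), a scaffold needed for positive selection, also rose. The other 32 did not pass, including Cd5, a brake on the receptor, at 136 and 211 FPKM, against 60.5 and 83.0 FPKM (1.25, limma adjusted p = 0.0603). Nr4a1, Dusp6, Tnfaip3, Cd247, Ubash3a and Tespa1 lost the call under at least 1 omission. Cd69, Egr1 and Rasgrp1 kept theirs whichever of the 11 libraries was left out, though leaving out the lone WT iNKT library cannot change this comparison.

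Cytokine receptors were split. Of 23 measured, 4 rose and 3 fell, where 3.98% of all entries were called. Il6st, the gp130 chain shared by the IL-6 family, was at 72.3 and 124 FPKM in L-DKO iNKT, against 10.9 and 21.3 FPKM in Id3KO γδ (2.55 ± 0.33, limma adjusted p = 0.00675). Il4ra, the receptor chain for IL-4 and IL-13, was at 15.1 and 18.8 FPKM, against 4.70 and 3.84 FPKM (1.77 ± 0.23, limma adjusted p = 0.00675), and Tgfbr2 (1.33) and Il21r (1.02) also rose. The falls were Il7r, Il12rb1 and Tgfbr3 (0.611 and 0.12 FPKM in L-DKO iNKT, against 3.72 and 3.35 FPKM in Id3KO γδ). Il2rb, the chain for IL-2 and IL-15, was at 55.7 and 18.7 FPKM, against 106 and 70.8 FPKM, and Ifngr1, which binds interferon-γ, at 19.1 and 17.8 FPKM, against 29.0 and 18.4 FPKM; neither passed (limma adjusted p = 0.184 and 0.564). Tgfbr2 and Il21r lost the call under at least 1 omission (limma adjusted p of up to 0.132 for Tgfbr2 without Id3KO γδ library a).

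Costimulatory and survival genes moved in both directions. Of all entries, 3.98% were called. In the costimulation and TNF family list, 2 of 23 rose and 2 fell: Tnfrsf9, which encodes 4-1BB, was at 39.1 and 43.1 FPKM in L-DKO iNKT, against 8.10 and 13.05 FPKM in Id3KO γδ (1.89 ± 0.33, limma adjusted p = 0.0237), and Traf1, an adaptor of TNF receptors, was at 1.53 and 1.95 FPKM, against 10.4 and 10.8 FPKM (−2.08 ± 0.21, limma adjusted p = 0.00285). In the survival and death list, 3 of 21 rose and 2 fell. The rises were the pro-death genes Bmf (13.9 and 9.66 FPKM, against 1.39 and 2.07 FPKM) and Pmaip1, which encodes NOXA (19.7 and 29.5 FPKM, against 6.70 and 7.74 FPKM), and the pro-survival gene Bcl2l2 (3.64 and 4.75 FPKM, against 0.304 and 0.152 FPKM). The falls were the pro-survival genes Bcl2a1b (7.05 and 15.8 FPKM in L-DKO iNKT, against 60.1 and 53.5 FPKM in Id3KO γδ) and Bcl2a1a (2.32 and 5.92 FPKM, against 21.8 and 14.95 FPKM), near-identical copies whose reads may be shared. Tnfrsf9, Bcl2a1b and Bcl2a1a lost the call under at least 1 omission (limma adjusted p of up to 0.0984 for Bcl2a1a without Id3KO γδ library a).

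Other lists had few or no calls. In the migration list, Cxcr4, which holds precursors in the thymic cortex, was at 107 and 110 FPKM in L-DKO iNKT, against 42.2 and 47.0 FPKM in Id3KO γδ (1.27, limma adjusted p = 0.043; 0.122 without L-DKO iNKT library b), and Ccr2, a receptor for inflammatory chemokines, was at 2.56 and 7.76 FPKM, against 35.1 and 16.5 FPKM, without passing (−2.17, limma adjusted p = 0.0626). Of 35 proliferation genes, 1 rose, E2f2, a cell-cycle transcription factor (38.1 and 41.3 FPKM, against 14.5 and 6.85 FPKM; 1.88, limma adjusted p = 0.0195; 0.0679 without L-DKO iNKT library b), and Mki67 was at 59.9 and 44.4 FPKM, against 46.9 and 27.3 FPKM. Of 31 interferon response genes, 2 fell and none rose, where 1.90% of all entries fell. They were Rnf213 (17.8 and 16.5 FPKM, against 52.7 and 41.9 FPKM, −1.40, limma adjusted p = 0.00656) and Bst2 (−1.26, limma adjusted p = 0.0453). Neither passed with all libraries scaled to the same FPKM total (limma adjusted p = 0.0617 and 0.12). Bst2 also lost the call without Id3KO γδ library a, where its difference was −1.17. The list median was −0.55, or −0.09 with the same FPKM total and 0.09 without Id3KO γδ library a. None of 19 genes of MHC class I presentation, 8 of the GIMAP family or 13 heat shock chaperones was called. B2m, the light chain of MHC class I, was at 332 and 476 FPKM in L-DKO iNKT, against 1129 and 761 FPKM in Id3KO γδ (−1.22 ± 0.38, limma adjusted p = 0.127). Of 147 measured genes of an innate-like signature that the study assembled, 12 rose and 11 fell, a share of 15.6% against 3.98% of all entries, and the median was −0.10, or 0.35 with all libraries scaled to the same FPKM total. The study compiled that signature from public microarray data of WT cells and from the literature, not from these libraries. It holds genes raised and genes repressed in innate-like cells, so its median has no direction of its own. Whether the share differs from that of other genes was not tested.

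Several genes of innate-like T cells had differences near 0 with narrow intervals. Cd40lg, the CD40 ligand, was at 23.9 and 26.4 FPKM in L-DKO iNKT, against 21.3 and 24.3 FPKM in Id3KO γδ (0.14, 95% interval −0.49 to 0.77), and at 56.1 FPKM in WT iNKT against 2.71 and 1.61 FPKM in WT γδ. Btla, an inhibitory receptor, was at 32.9 and 44.6 FPKM, against 33.6 and 39.8 FPKM (0.07, 95% interval −0.40 to 0.54), with 22.4 FPKM in WT iNKT and 11.9 and 10.4 FPKM in WT γδ. Ly9, a SLAM family member, was at 46.9 and 43.0 FPKM, against 46.0 and 42.0 FPKM (0.03, 95% interval −0.39 to 0.45), and Fyn, a kinase that iNKT cells need, at 83.4 and 94.2 FPKM, against 91.0 and 97.2 FPKM (−0.08, 95% interval −0.45 to 0.28). Sh2d1a, the SLAM adaptor SAP, was at 81.0 and 57.1 FPKM, against 69.1 and 55.7 FPKM, with a wider interval of −0.75 to 1.01. Gata3, a factor for type 2 cells and CD4 cells, was at 40.6 and 76.5 FPKM, against 61.6 and 42.2 FPKM (0.13, 95% interval −0.59 to 0.84). The CD3 chain gene Cd3e, whose product serves both receptors, was at 279 and 335 FPKM, against 302 and 326 FPKM. Cd40lg, Btla, Ly9, Fyn, Sh2d1a and Cd3e were picked for this comparison after their values had been seen. Over all entries, 7051 (59.7%) had a 95% interval within 1 log2 unit of 0.

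The same lineages were next compared between WT libraries, to set the mutant difference beside that of normal cells. WT iNKT against WT γδ cells gave 328 calls (2.78% of entries), 144 higher and 184 lower, where the lone WT iNKT library was taken to vary as the other groups do. Of the 470 genes called between the mutants, 77 were also called between the WT groups, 19 in the same and 58 in the opposite direction. The difference between the mutant and the WT contrast was itself tested and was called for 780 entries (6.60%), among them 293 of the 470 and all 58 with opposite directions. Those 58 comprised 28 genes lower between the mutants and higher between the WT groups, and 30 the other way round. Calls in opposite directions make a called difference between the contrasts likely in advance, so its test is no separate support for these 58. Trac and Trav11 were among the 12 called higher in both contrasts. The WT iNKT library summed to 1020310 FPKM, and small RNAs, receptor segments and predicted genes took 63.7% of it. In the WT γδ libraries the sums were 689988 and 933593 FPKM and the shares 53.3% and 64.7%. Scaling to the same FPKM total was not run for the WT contrast or for the difference between the contrasts.

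Several genes that were higher in WT iNKT than in WT γδ cells were lower in L-DKO iNKT than in Id3KO γδ cells. Cxcr6, at 5.24 and 7.33 FPKM in L-DKO iNKT and 60.9 and 76.5 FPKM in Id3KO γδ, was at 199 FPKM in WT iNKT and at 14.99 and 30.7 FPKM in WT γδ, so that the mutant contrast lay below the WT contrast by −6.42 ± 0.50 (limma adjusted p = 0.00176). Il7r was at 319 FPKM in WT iNKT and 40.2 and 49.6 FPKM in WT γδ (−5.27 ± 0.44, limma adjusted p = 0.00224). For Id2, which is deleted in L-DKO mice by design, this value was −10.81, for Adam19 −7.27, for Bcl2a1b −6.62, for Bcl2a1a −5.66 and for Ctsw −4.23. The order reversed the other way for Rasgrp1, at 49.4 FPKM in WT iNKT and 221 and 242 FPKM in WT γδ (4.63 ± 0.25, limma adjusted p = 0.00106), and for Il6st, at 7.72 FPKM in WT iNKT and 53.4 and 48.0 FPKM in WT γδ (5.12 ± 0.53, limma adjusted p = 0.0034). Nr4a1 (4.70), Myb (3.13), Cd247 (2.46), Lef1 (2.44) and Tcf7 (2.43) were of this kind as well. Etv5, a factor of immature γδ cells, was at 34.5 and 27.4 FPKM in L-DKO iNKT, against 8.51 and 3.21 FPKM in Id3KO γδ, and at 2.54 FPKM in WT iNKT against 125 and 123 FPKM in WT γδ (7.46 ± 0.81, limma adjusted p = 0.00347). The 15 genes from Cxcr6 to Etv5 kept the call of this difference under each of the 10 omissions of a library that could be run, since the single WT iNKT library cannot be left out (limma adjusted p of up to 0.0305 for Cd247 without WT γδ library a), whereas 8 of them (Myb, Cd247, Tcf7, Bcl2a1a, Bcl2a1b, Nr4a1, Lef1 and Etv5) lost the call between the mutants under at least 1 omission (limma adjusted p of up to 0.159 for Etv5 without Id3KO γδ library b). Without WT γδ library a, 70 entries were called in the WT contrast and 372 in the test of the difference.

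**Figure D5:**
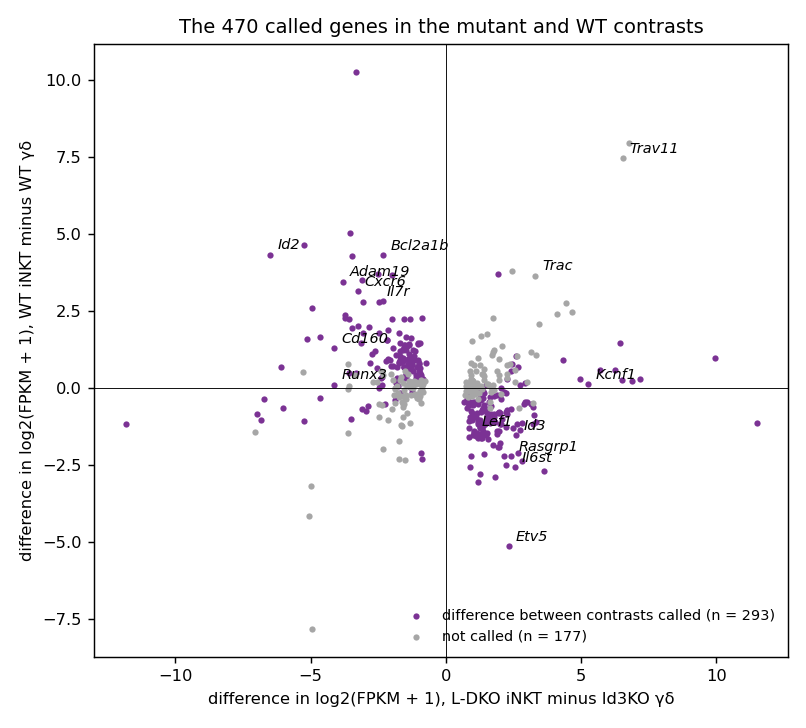
Difference in log2(FPKM + 1) between L-DKO iNKT and Id3KO γδ (horizontal axis) and between WT iNKT and WT γδ (vertical axis) for the 470 genes called in the mutant contrast, with 293 genes in purple where the difference between the contrasts was called and 177 in grey where it was not. Trac and Trav11 lie upper right, Cxcr6, Il7r and Id2 upper left, and Rasgrp1, Il6st and Etv5 lower right.

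Some differences were also present between L-DKO and WT DP thymocytes, a comparison added after the data had been seen. No Id3KO DP library was analysed here. L-DKO against WT DP cells gave 21 calls (0.178% of entries), and 9 of these were among the 470, 8 in the same direction. Cd96 was at 1.22 and 0.818 FPKM in L-DKO DP cells, against 41.7 and 43.4 FPKM in WT DP cells, and fell between the mutant groups too. Kcnf1 was at 3.17 and 2.54 FPKM in L-DKO DP cells and listed at 0 in both WT DP libraries, and Rps3a3, a copy of a ribosomal protein gene, was at 168 and 153 FPKM in L-DKO iNKT and 81.3 and 81.1 FPKM in L-DKO DP, against 8.12 and 7.88 FPKM in WT DP cells and 25.4 and 33.2 FPKM in Id3KO γδ cells. Id3 was the exception in direction, with 6.16 and 3.09 FPKM in L-DKO DP cells, against 53.8 and 36.9 FPKM in WT DP cells.

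Genes next to the deleted loci were counted because alleles bred together differ in more than the deleted gene. Within 10 Mb of Id2 on chromosome 12, 5 of 57 neighbours were called (8.77%, against 3.98% of all entries), among them Kcnf1 at a distance of 7.92 Mb, Sypl (37.7 and 35.04 FPKM in L-DKO iNKT, against 16.7 and 11.6 FPKM in Id3KO γδ) and Rnf144a (1.32 and 4.58 FPKM, against 12.6 and 12.004 FPKM). Sypl and Rnf144a lost the call under at least 1 omission (limma adjusted p of up to 0.103 for Sypl without Id3KO γδ library b). Within 10 Mb of Id3 on chromosome 4, 6 of 191 were called (3.14%). These included E2f2, which starts 0.0285 Mb from Id3, and Runx3, at 1.02 Mb. Whether these neighbours differ through the alleles was not tested.

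Markers of other cells and of the pools were checked in the 4 libraries, where 3.98% of all entries were called. The summed FPKM of 23 DP-stage genes was 1201 and 734 in L-DKO iNKT, against 666 and 626 in Id3KO γδ, and 7266 to 7824 in the DP libraries of either genotype. Arpp21 was the only member called (limma adjusted p = 0.0273), a share of 4.35%, near that of all entries. Arpp21 lost the call without L-DKO iNKT library b, where its difference was 1.97. In L-DKO iNKT, Cd8a was at 47.5 FPKM in library a and 2.13 FPKM in library b, and Dntt at 66.4 and 2.84 FPKM. L-DKO iNKT held 32.0 and 30.2 FPKM of the Y-linked gene Ddx3y, against 8.16 and 254 FPKM in Id3KO γδ, whose library b also held more Cd8a than library a (133 against 32.0 FPKM). Of 3 measured B cell markers, Cd79b, a chain of the B cell receptor, fell (0.384 and 0.116 FPKM in L-DKO iNKT, against 2.55 and 2.50 FPKM in Id3KO γδ, limma adjusted p = 0.00401). Its level was higher in WT γδ (9.21 and 9.81 FPKM), L-DKO DP (11.6 and 10.4 FPKM) and WT DP cells (6.02 and 5.64 FPKM). The immunoglobulin genes Ighm (336 and 198 FPKM, against 122 and 185 FPKM) and Igkc (0.806 and 6.35 FPKM, against 1.47 and 309 FPKM) did not pass. Hbb-bs, a haemoglobin gene, was at 0.901 and 13.2 FPKM in L-DKO iNKT, against 45.6 and 47.0 FPKM in Id3KO γδ (limma adjusted p = 0.0655). The 7 myeloid and dendritic markers summed to 39.9 and 53.2 FPKM in L-DKO iNKT, against 44.6 and 66.4 FPKM in Id3KO γδ. Of these, Itgam, an integrin chain also found on some lymphocytes, rose (11.7 and 10.9 FPKM, against 1.77 and 1.49 FPKM, limma adjusted p = 0.00141), and the other 6 did not pass. The part of these in the differences between the groups was not tested, and 399 and 333 entries were called without Id3KO γδ library a and b.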

How the data were processed

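RNA-seq libraries of sorted thymocytes were analysed from 1 deposited table of 11815 gene entries, whose values are log2(FPKM + 1) as made by the authors. Upstream tools in the submitters' processing notes are Trimmomatic 0.32, TopHat2 2.0.9 and Cufflinks 2.2.0 with mm10 and GRCm38. The sources used here do not give the strand setting, so reads of overlapping genes may be shared. The authors' 5 columns of group means and 3 columns of mutant to WT fold (ratio) were not used, and 1 labelled WT iNKT sample was not analysed here. P-values measure the spread between these pools, which may be technical.

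All 11 libraries in 6 groups were fitted together with limma 3.58.1 (R 4.3.3), which left 5 residual degrees of freedom, with Benjamini-Hochberg adjustment over all entries and a threshold of 0.05. The code was tested on simulated data. Genes named are the Id and E protein genes, 12 genes the study discusses, the 10 largest rises and falls that reached 10 FPKM in a group without overlap, and up to 4 members of each list with the largest differences; other members are named where a result turns on them. Members and lists were chosen with earlier results of these data known. Alternatives varied the offset, a filter at 1 FPKM, the libraries in the fit, the variance trend, 4 ways of scaling between libraries and the omission of each library. Promoter sequences and gene positions came from RefSeq (GRCm38.p6). One gene that the naming rule takes is not reported here.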

Additional observations from a re-analysis of the deposited data

Results flagged for a closer look

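The contrast between iNKT and γδ cells differed between the mutant and the WT libraries, by limma's test of the difference itself, for 780 entries. Of 58 entries called in both contrasts with opposite directions, the 15 that the text describes are given with the mutant minus the WT contrast in log2(FPKM + 1). Those lower between the mutants were Id2 (−10.81), Adam19 (−7.27), Bcl2a1b (−6.62), Cxcr6 (−6.42), Bcl2a1a (−5.66), Il7r (−5.27) and Ctsw (−4.23). Id2 is deleted in L-DKO mice and intact in Id3KO mice, so its place here was set by the design. Those higher between the mutants were Etv5 (7.46), Il6st (5.12), Nr4a1 (4.70), Rasgrp1 (4.63), Myb (3.13), Cd247 (2.46), Lef1 (2.44) and Tcf7 (2.43). The WT side of each value rests on 1 WT iNKT library. The 15 were picked for opposite calls, which make a called difference likely in advance, so its test is no separate support for them.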

How the results depend on the processing

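The count of 470 entries called between L-DKO iNKT and Id3KO γδ became 46 (1654 at an unadjusted p under 0.05) with only the 4 libraries compared, and 939 with all libraries scaled to the same FPKM total. It was 261 to 470 over the omissions of 1 library, and 158 entries were called whichever library was left out. The offset, filter, trend, quantile, median centring and remaining scaling settings gave 336 to 548. An offset of 0.1 gave 217 calls in the WT contrast, and omissions gave 70 to 458 there and 372 to 909 for the difference between the contrasts. Of 81 called genes named here, 45 kept the call under all omissions, 25 lost it with an offset of 0.1 and 69 with only 4 libraries, and no direction reversed. The fits with an omission or with 4 libraries hold fewer samples, and the cause of the other changes was not tested. Leaving out the lone WT iNKT library cannot change the mutant comparison, so that omission is no test of it. No paired analysis was possible because the table's columns carry no replicate number. Scaling to the same FPKM total was run for the mutant comparison only, so its effect on the WT contrast and on the difference is not known. Depth is unknown, so no counting error could be given.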
